A study of Zea mays with 14 samples.

Results

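A set of 214 probe sets, out of 17555 on a maize expression array, was abundant in quiescent embryonic axes, low in one sample of germinated axes named M4, and higher again in the only other germinated sample of that kind, named RB. A probe set is a group of short probes read out as one transcript. With all values on the log2 scale, members had a quiescent level of at least 6, lay at least 3 units lower in M4 than in quiescent axes, and lay at least 1 unit higher in RB than in M4. The quiescent level was the mean of 2 biological samples and the M4 level the mean of its 2 arrays. The members were thus chosen by the measured values of quiescent axes, M4 and RB, and everything said of these 3 states is a description without a test. The name persisting set is used below for these probe sets, although no time course was measured. Each germinated state of total RNA rests on 1 sample, and RB was hybridised to 1 array.

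The study used maize (Zea mays) seeds with no genotype or strain given in the labels. Its 11 biological samples, on 14 arrays, fell into 5 groups. The first group was total RNA of quiescent axes from seeds at 0 h, with 2 samples, and the second was total RNA of axes taken from seeds after 24 h of germination on moist cotton, with the samples M4 and RB. The third was polysomal RNA without insulin, with 3 samples, the fourth polysomal RNA with insulin, with 3 samples, and the last total RNA with insulin, with 1 sample. For the insulin groups, seeds were imbibed for 22 h in darkness, and the dissected axes then spent 2 h in Murashige and Skoog medium. That medium contained either 200 µU/mL of bovine insulin or none. Whether the axes of M4 and RB were also kept in medium, and what sets M4 and RB apart, is not stated in the labels. Total RNA came from 1 g of axes and polysomal RNA from 2 g, so a sample pools the axes of many seeds.

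A dry maize embryo holds messenger RNAs that were made while the seed matured and survived desiccation. Once the seed takes up water, ribosomes load onto messages and many of the stored ones disappear, while new transcripts take their place. Polysomes are messages carrying several ribosomes, and the RNA found with them is taken as a sample of what is being translated. Well-known stored messages of cereal embryos encode dehydrins and other late embryogenesis abundant proteins, storage globulins, oil body proteins and antioxidant enzymes. An array value says how much of an mRNA there is relative to the rest of the RNA in that sample, and fewer cells of one type cannot be told apart from less of an mRNA per cell.

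Array medians lay between 7.28 and 7.65. The background level of a sample, defined as the 95th percentile over its 23 negative controls, lay between 4.29 and 4.81. Technical arrays of one sample differed over the members by a median of 0.084 in quiescent sample 1, 0.18 in M4 and 0.21 in total RNA with insulin. The difference between the 3′ and 5′ probe sets of EF1a, a sign of RNA integrity and of the labelling reaction, was 0.63 in M4 and 0.62 in RB. Poly-A spike-in controls had a median of 7.47 in M4 and 7.56 in RB. The label embryonic axis was checked against 6 probe sets whose gene symbols matched a list of meristem and root genes. The gene plt2 was matched by its symbol alone, and whether it is a root gene was not checked. The meristem gene kn1 was above background in the quiescent, 24 h and insulin-treated total RNA samples, as were 3 of the others, plt2 among them. The probe sets of the lateral organ genes ns1 and ns2 were at background there. Of 20 probe sets for endosperm genes, 11 were above background in some sample, and both probe sets of the zein gene z1C2 (floury2) were at background in quiescent axes, at 3.16 and 3.17. Others were well above it, with quiescent means of 7.79 for one probe set of the zein gene gz27, 8.22 for bt2 and 9.64 for one of sh1.

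Of the 17555 probe sets, 340 (1.94%) fell by at least 3 units from quiescent axes to M4, and all of these had a quiescent level above 6. The persisting set holds 214 of them. The other 126, less than 1 unit higher in RB than in M4, were low in both germinated samples and serve as the set for comparison. Over the whole array 935 probe sets (5.33%) were at least 1 unit higher in RB than in M4, and 1079 were at least 1 unit lower. The quiescent level placed no limit in practice, since its lowest member was at 6.43. The fall to M4 was 3.01 in the member just inside that threshold and 2.997 in the probe set just outside. For RB minus M4 the nearest values were 1.002 inside and 0.998 outside. Within 0.1 of the fall threshold there were 7 members and 12 excluded probe sets, and within 0.1 of the RB threshold 11 members and 14 excluded ones.

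Among the members the level fell by a median of 4.08 units to M4, with a range of 3.01 to 6.70, so that M4 held a median of 5.89% of the quiescent intensity. RB lay a median of 1.84 units above M4, which is 3.58-fold, and the range ran from 1.00 to 4.31 units, or from 2.00-fold to 19.8-fold. RB kept a median of 44.7% of the fall on the log2 scale and 21.7% of the quiescent intensity. The level in RB was thus between that of quiescent axes and that of M4 for nearly every member, and 1 member was as high in RB as in quiescent axes. In M4 125 of the 214 members were above background, and in RB 213 were. With M4 values below background raised to it, 185 members still had a difference of at least 1 unit.

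**Figure D1:**
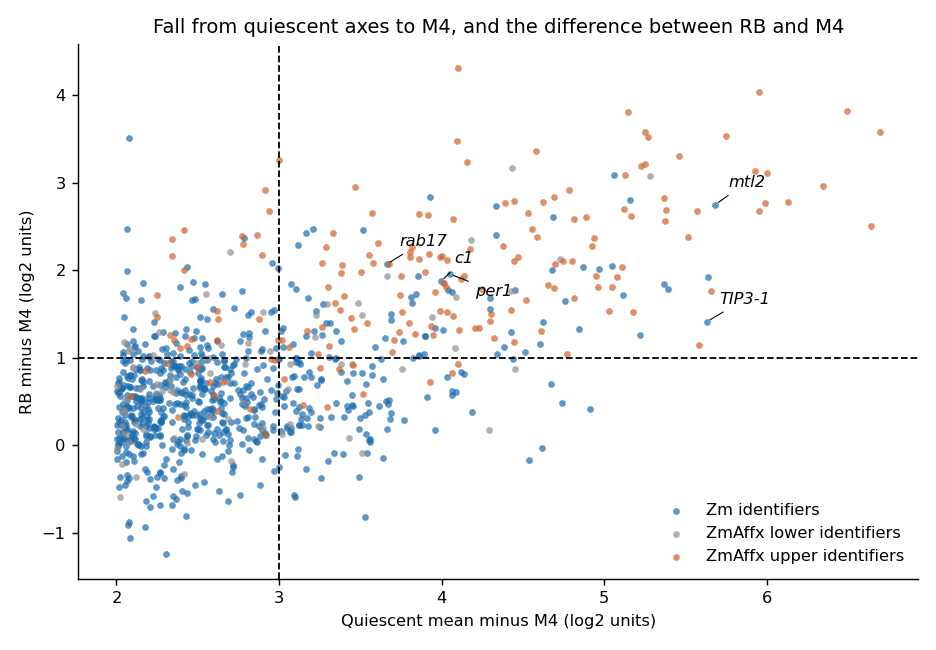
Fall from quiescent axes to M4 (horizontal axis, log2 units) against RB minus M4 (vertical axis, log2 units) for every probe set with a quiescent level of at least 6 and a fall of at least 2. Colours give the identifier family, dashed lines the thresholds of 3 and 1, and the 5 labelled points are the members with a gene name. The 214 members fill the upper right field, where probe sets of the upper ZmAffx numbers prevail, and the 126 below the horizontal line are mostly of the Zm family.

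The identifiers of the array come in families, and the members were unevenly spread over them. The division was drawn after the values were seen, from the letters and numbers of the identifiers alone. Identifiers starting with Zm made up 15376 probe sets and gave 72 members, or 0.468%. Identifiers starting with ZmAffx and numbered up to 1213 made up 1944 probe sets and gave 15 members, or 0.772%. ZmAffx identifiers from 1214 on made up 235 probe sets and gave 127 members, or 54.0%. The number 1213 is the highest of a ZmAffx identifier marked A, and the line was drawn there. The block from 1214 on therefore holds only the type marked S by definition. This last block, called the upper ZmAffx family below, therefore held 59.3% of the persisting set. Of the stored probe sets whose level fell by at least 3 units, 92.7% of those in the upper ZmAffx family were members, against 40.9% in the Zm family.

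No gene was named for any probe set of the upper ZmAffx family in the tables used here, so its 127 members stay without a name. What these probe sets were designed to detect was not given either, so it could not be checked that they measure messenger RNA, and values of this family on polysomes are signals of unidentified transcripts. The 108 probe sets of that family that were not members had medians of 8.66 in quiescent axes, 6.46 in M4 and 7.89 in RB. With the conditions taken in order, 8 missed the quiescent level, 90 of the rest missed the fall of 3 units, and the last 10 missed only the RB threshold. Of the 108, 29 were at least 1 unit higher in RB than in M4. Even so 101 of the 108 were higher in quiescent axes than in M4, and 90 were higher in RB than in M4. The full order, with quiescent axes above RB and RB above M4, held for 78 of the 108.

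The 214 members belonged to 207 identifier clusters. In 5 clusters more than 1 probe set was a member, 12 probe sets in all. Each of these clusters holds members marked A and members marked S, and whether they detect the same transcript was not checked. A name could be given to 5 members, all of the Zm family, while 209 had none. The 5 encode a dehydrin, a metallothionein-like protein, an antioxidant enzyme, a water channel and a transcription factor.

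The gene rab17 (LOC542373, also dhn1) encodes an abscisic acid-responsive dehydrin of the mature embryo, a protein that protects cells during drying. Its level was 14.09 in both quiescent samples, 10.42 in M4 and 12.50 in RB. In polysomal RNA it was 11.09, 10.06 and 10.10 without insulin and 9.23, 11.04 and 9.36 with insulin, and in total RNA with insulin it was 10.90. RB therefore held 33.2% of the quiescent intensity where M4 held 7.88%, a difference of 4.21-fold. Every polysomal sample was well above background and below RB, and the polysomal groups overlapped. The mean with insulin was 0.54 lower (SE 0.52, n = 3 against 3, limma adjusted p = 1.00 over all probe sets), less than the spread between replicates. Leaving out 1 polysomal sample moved it to between -1.12, without sample 2 with insulin, and -0.20, without sample 1 without insulin.

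The gene mtl2 (LOC542475) encodes a metallothionein-like protein, one of a class of small cysteine-rich proteins that bind metal ions. Its probe set was at 14.06 and 14.03 in quiescent axes, 8.36 in M4 and 11.11 in RB. Polysomal levels were 10.10, 8.69 and 7.76 without insulin and 8.31, 10.14 and 7.73 with insulin, against 9.82 in total RNA with insulin. It had the deepest fall of the named members, 5.68 units, and also the largest difference between RB and M4, 2.75 units or 6.72-fold. Among the polysomal samples, sample 1 without insulin and sample 2 with insulin were high and the other 4 lay within 1 unit of M4. Probe sets of this type, marked x, can share sequence with related genes, so the level may include other transcripts.

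The gene per1 (LOC100037830) encodes a peroxiredoxin of the 1-Cys type, an antioxidant enzyme found in cereal embryos and aleurone. Its level was 13.47 and 13.56 in quiescent axes, 9.46 in M4 and 11.42 in RB. On polysomes it was 10.00, 8.00 and 8.35 without insulin and 8.13, 9.63 and 7.93 with insulin, and it was 8.98 in total RNA with insulin. Polysomal sample 1 without insulin and sample 2 with insulin were again the highest, above M4, and the other 4 were below M4. Both other probe sets of the same identifier cluster, which carry no name in the tables, were members too, with RB above M4 by 1.32 and 2.00 units.

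The gene TIP3-1 (LOC541896, tip3a) encodes a tonoplast aquaporin, a water channel of the membrane around the vacuole that is typical of seeds. It was at 13.58 and 13.36 in quiescent axes, 7.84 in M4 and 9.25 in RB. Its polysomal levels stayed close together, at 8.27, 8.10 and 7.77 without insulin and 8.29, 8.27 and 7.66 with insulin. In total RNA with insulin it was 9.17, close to RB and above all 6 polysomal samples. The insulin-treated polysomal mean was 1.09 lower than that total RNA sample (SE 0.31, 95% interval -1.82 to -0.37), with an unadjusted p of 0.0091 in limma and an adjusted p of 0.276. Total RNA with insulin has 1 sample, so the SE, interval and p rest on the spread of the polysomal samples alone. RB kept 25.1% of its fall, the smallest share among the named members.

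The gene c1 (LOC541757) encodes a MYB transcription factor that switches on anthocyanin pigment genes in the kernel. The member probe set was at 7.04 and 7.58 in quiescent axes, 3.31 in M4 and 5.19 in RB. It lay between 3.30 and 3.85 in the 6 polysomal samples and at 3.55 in total RNA with insulin. M4 and all of these later samples were below background, so only quiescent axes and RB had a measured level, and RB exceeded M4 by at least 1.49-fold. A second probe set for c1 was flat, with a fall of 0.00 and RB 0.54 below M4, and a second one for mtl2 fell by 2.19 with RB 0.30 below M4. Both disagree with the member probe set of the same gene. They are marked A in their identifiers and the member probe sets S, and the reason for the disagreement was not tested.

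**Figure D2:**
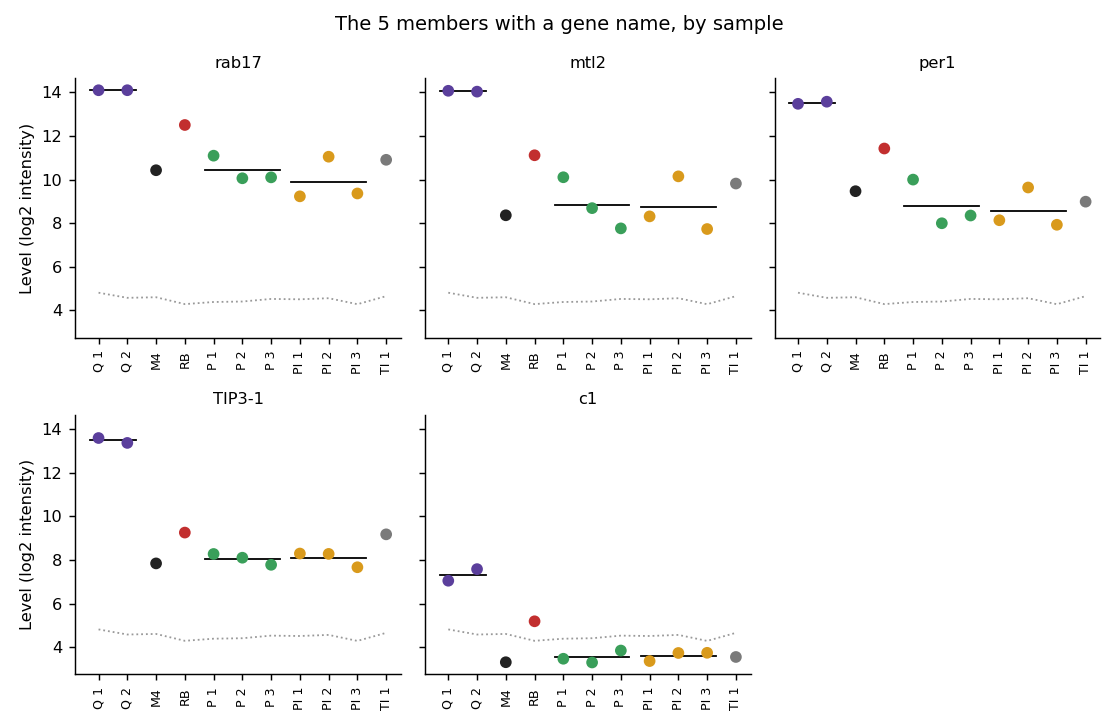
Level (log2 intensity) of the 5 named members in each of the 11 biological samples. Q is quiescent, P polysomal without insulin, PI polysomal with insulin and TI total RNA with insulin. Points are samples, horizontal bars are group means, and the dotted line is the background level of each sample. RB lies between Q and M4 in all 5 panels, P 1 and PI 2 are the highest polysomal samples for rab17, mtl2 and per1, and c1 is below background in every sample except Q and RB.

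Known stored messages outside the persisting set showed that the class did not move as one. Of 6 probe sets for late embryogenesis abundant proteins and dehydrins, 1 was a member, that of rab17. The related gene mlg3, another of this group, fell by 2.76 and was 1.19 higher in RB, and emb5, an Em-type protein, fell by 2.17 and was 0.72 higher in RB. All 3 probe sets of the dehydrin dhn2 were higher in M4 than in quiescent axes, by 3.22 to 3.51 units. The oil body protein gene ole1 fell by 2.28 with RB 1.29 above M4, and missed membership through the fall alone.

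Storage globulin genes behaved differently from rab17. The glb1 probe set fell by 4.54 units and was 0.17 lower in RB than in M4, and glb2 fell by 4.92 with RB 0.41 higher. Both thus belong to the comparison set, low in M4 and RB. In total RNA glb3 stayed between 5.12 in M4 and 5.64 in quiescent sample 1, and on polysomes between 4.73 and 5.56. The water channel gene TIP3-2, a relative of TIP3-1, also belonged to the comparison set, with a fall of 3.39 and RB 0.10 lower. The 2 aquaporin genes therefore both fell deeply, and only TIP3-1 was higher in RB, as the rule required of it. For TIP3-2 the difference was smaller than the median of 0.105 between the 2 arrays of M4 over all probe sets. The contrast rests on single samples and was not tested.

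Members made up 1.22% of all probe sets and 0.468% of the Zm family, and the counts below are to be read against these shares. Antioxidants gave 2 of 49 probe sets, those of per1 and mtl2. None of 7 probe sets for abscisic acid signalling and seed transcription factors, 19 for cytosolic ribosomal proteins, 10 for translation factors, 3 for the glyoxylate cycle and lipases or 12 for heat shock proteins was a member. No probe set with a raffinose family name was found. In both tests described below, 0 probe sets of any list were called.

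Across the 5 groups the members of the Zm family went from a median of 11.04 and 11.28 in the quiescent samples to 7.10 in M4 and 8.70 in RB. Their medians in polysomal RNA were 7.58, 6.88 and 6.99 without insulin and 6.82, 7.59 and 6.82 with insulin, and 7.43 in total RNA with insulin. These medians lie near that of M4, and 67 to 70 of the 72 members were above background in each of these 7 samples. The Zm members thus still had a readable level on polysomes. Of the 72, 70 were lower in all 6 polysomal samples than in RB, which the rule chose to be high, and over all Zm probe sets this held for 4848 of 15376.

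Members of the upper ZmAffx family had medians of 8.78 and 9.07 in quiescent axes, 4.24 in M4 and 6.46 in RB. On polysomes the medians were 4.27, 4.85 and 4.36 without insulin and 4.84, 5.34 and 5.36 with insulin, and total RNA with insulin had 4.16. Only 46 of the 127 were above background in M4 and 39 in total RNA with insulin, against 126 in RB. In polysomal samples without insulin 54, 87 and 54 were above background, and in those with insulin 82, 98 and 103. Differences of this family from M4 or from total RNA with insulin are therefore in good part differences from background. The 15 members with lower ZmAffx numbers had medians of 5.22 in M4, 6.64 in RB, 4.61 in total RNA with insulin and 4.72 to 5.86 on polysomes.

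**Figure D3:**
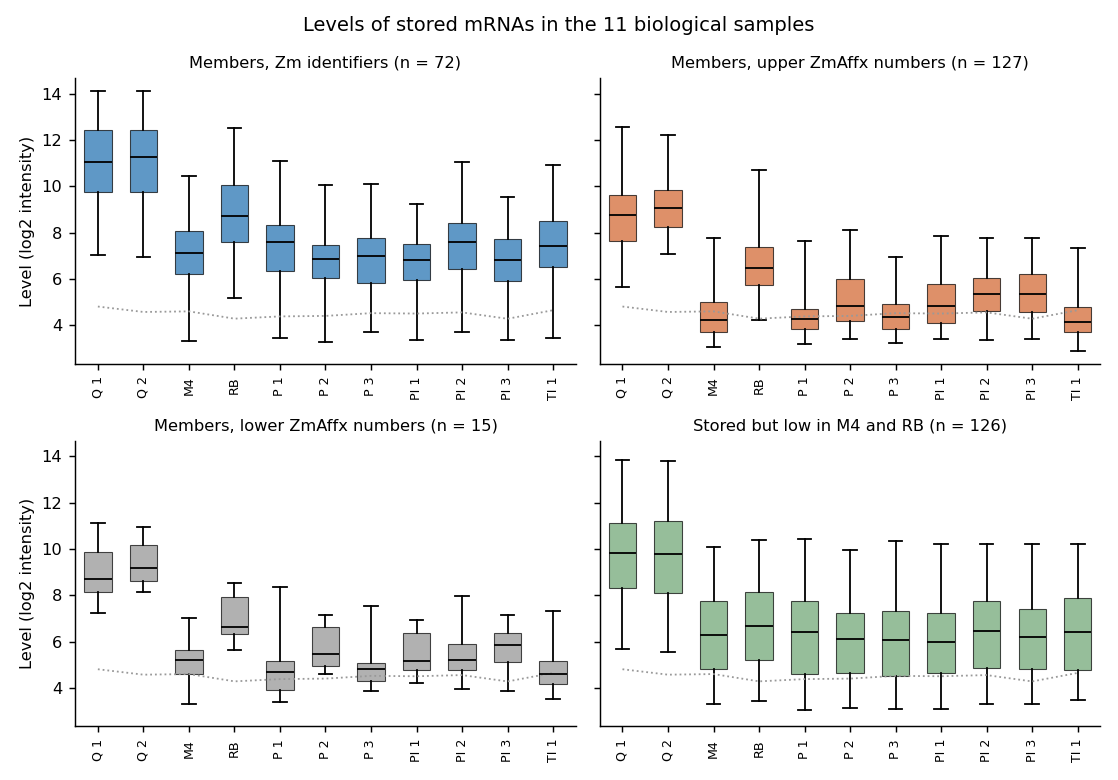
Levels (log2 intensity) of the members in each biological sample, by identifier family, and of the 126 probe sets low in M4 and RB. Boxes are quartiles, the bar is the median, whiskers reach the lowest and highest probe set, and the dotted line is the background level of the sample. RB is raised in all 3 families of members, while on polysomes the Zm members are highest in P 1 and PI 2 and the upper ZmAffx members are highest in PI 2 and PI 3.

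No member was as high in insulin-treated total RNA as in RB, whereas 9399 of all 17555 probe sets were, a difference that the choice of members by a high RB favours. Above M4 in that sample were 110 of the 214 members and 10292 of all probe sets. The share of the fall that was left, set to 0 at M4 and 100 at the quiescent mean, had a median of 0.22% in that sample. It was 44.7% in RB. At least 1 unit above M4 were 4 of the 214 members in total RNA with insulin, where the whole array gave 0.103%. For the persisting set the insulin-treated total RNA thus lay near M4 and below RB.

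The residue on polysomes was measured as the polysomal value minus M4. Averaged over the 6 polysomal samples it had a median of -0.05 in the Zm family, with a range from -1.92 to 0.98, and of 0.39 in the upper ZmAffx family, with a range from -1.52 to 2.45. Over the 46 upper ZmAffx members above background in M4 the median was 0.13. The polysomal mean exceeded M4 for 33 of the 72 Zm members and for 104 of the 127 upper ZmAffx members, while over all probe sets it did so for 46.1%. All 6 polysomal samples were above M4 for 55 of the 214 members, and the background was 21.3%. By family these were 8 of 72, 3 of 15 and 44 of 127 members. In intensity the polysomal mean was a median of 6.37% of the quiescent level over the whole set.

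The members with the largest residue came from 1 family. The 10 highest were all of the upper ZmAffx family, but for 9 of them M4 was below background, so their order is not measured. With M4 raised to background their residue was 0.24 to 2.28 units. Of the 10 lowest, from -1.92 to -0.80, 7 were of the Zm family. Members were above RB or equal to it in at least 1 polysomal sample in 23 of 214 cases, 19 of them in the upper ZmAffx family, against 12001 of 17555 for the whole array. The choice of members by a high RB lowers that count.

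Individual polysomal samples differed from each other, and the families did so in different ways. For Zm members the median difference from M4 was 0.30, -0.34 and -0.26 without insulin and -0.25, 0.33 and -0.34 with insulin. Sample 1 without insulin and sample 2 with insulin were the 2 highest of the 6 for 43 of the 72 Zm members, or 59.7%, against 18.7% of all probe sets. At least 1 unit above M4 were 9 of the 72 in the first of these and 10 in the second, where the whole array gave 1.37% and 1.57%, and 2 in each of the other 4. These 2 samples also had the highest poly-A spike-in medians, 10.8 in both against 7.37 to 9.57 in the other polysomal samples. The part of that difference in the result was not tested.

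Upper ZmAffx members followed another order. Their median difference from M4 was -0.02, 0.51 and 0.05 without insulin and 0.36, 0.80 and 0.81 with insulin. Samples 1 and 3 without insulin were the 2 lowest of the 6 for 92 of the 127, or 72.4%, against 3.85% of all probe sets. The same order held for 129 of all 235 probe sets of the upper ZmAffx family, or 54.9%, so it was not particular to the members. At least 1 unit above M4 in samples 1 to 3 without insulin were 0, 35 and 4 of the 127, where the whole array gave 1.37%, 3.34% and 2.24%. In samples 1 to 3 with insulin there were 26, 48 and 53, against 3.58%, 1.57% and 1.85%, and total RNA with insulin had 0. The EF1a 3′ to 5′ difference was 1.32, 2.55 and 0.88 without insulin and 2.25, 1.45 and 0.99 with insulin, and its part in the result was not tested. Hybridisation controls were near background in polysomal sample 2 with insulin, at a median of 3.97, and between 8.98 and 10.7 in the other samples.

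Among members without a gene name, the 2 with the largest RB minus M4 left little on polysomes. ZmAffx.1317.1.S1_at had 9.10 and 8.78 in quiescent axes, 4.83 in M4 and 9.14 in RB, a difference of 4.31 units. It was the single member with a level in RB not below quiescent axes. Its polysomal values were 4.57, 4.28 and 4.10 without insulin and 4.53, 5.14 and 4.44 with insulin, near background, as was the 4.75 of total RNA with insulin. ZmAffx.1474.1.S1_s_at, with 12.55 and 12.21 in quiescent axes, 6.43 in M4 and 10.46 in RB, was between 5.24 and 6.22 in all 6 polysomal samples and thus below M4.

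The 2 with the largest polysomal value minus M4 looked different, although M4 was below background for both. ZmAffx.1468.1.S1_at was at 10.87 and 11.40 in quiescent axes, 4.44 in M4 and 8.02 in RB. On polysomes it had 5.11, 8.02 and 5.83 without insulin and 7.75, 7.34 and 7.24 with insulin, whereas total RNA with insulin had 4.22, below background. Polysomal sample 2 without insulin and all 3 samples with insulin thus stood within 1 unit of RB. With total RNA with insulin raised to its background level, the insulin-treated polysomal mean was 6.92-fold higher. As measured the difference was 3.22 units, against 1 sample of total RNA, and it was not called in the test below. ZmAffx.1426.1.S1_at had 10.43 in both quiescent samples, 3.94 in M4 and 7.76 in RB. Its polysomal values were 4.83, 6.61 and 5.07 without insulin and 6.24, 6.90 and 6.98 with insulin, with overlapping groups, and it was at 3.96 in total RNA with insulin.

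**Figure D4:**
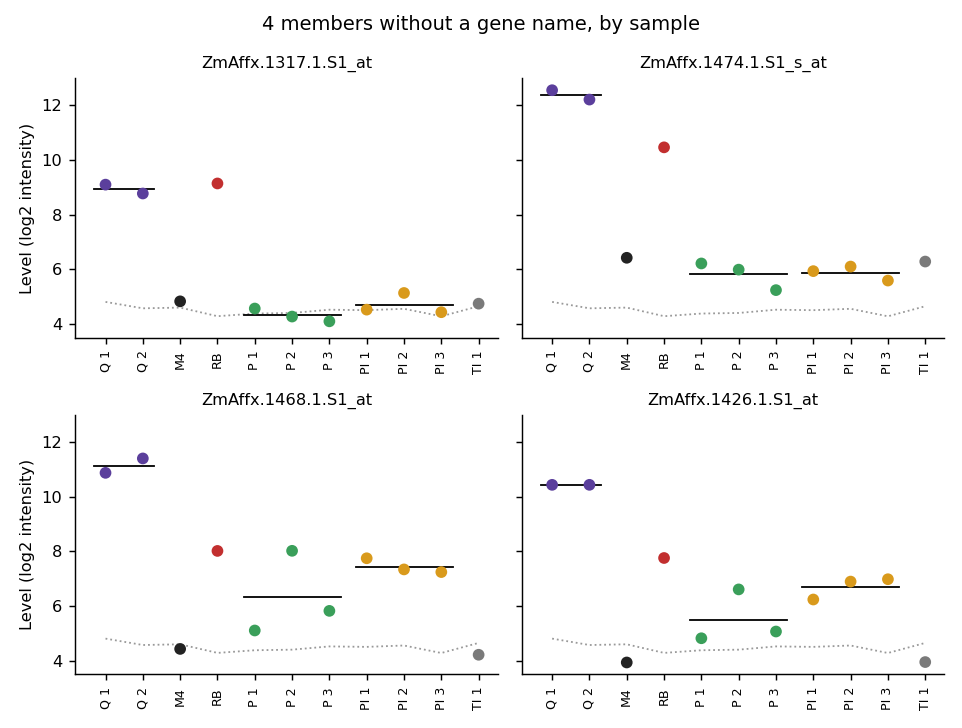
Level (log2 intensity) of 4 members without a gene name in each biological sample, with group means as bars and the background level as a dotted line. The upper panels show those with the largest RB minus M4, which are near or below M4 on polysomes, and the lower panels those with the largest polysomal residue, where P 2 and the 3 PI samples are above P 1 and P 3 and TI 1 is below background.

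Whether insulin changed the representation of the persisting set on polysomes was tested in samples the rule did not use. In the limma fit of the 7 polysomal and insulin-treated samples, 0 of the 214 members and 0 of 17555 probe sets (0%) had an adjusted p under 0.05. With an unadjusted p under 0.05 there were 44 members, all higher with insulin, where the whole array gave 1.01% in either direction, 0.638% higher and 0.37% lower. Of these 44, 38 were in the upper ZmAffx family, 5 in the Zm family and 1 had a lower ZmAffx number. No single member can be named as changed. Without polysomal sample 1 without insulin 13 members had an unadjusted p under 0.05, without sample 2 of that group 93, and without sample 3 of it 14. Without samples 2 and 3 with insulin, left out one at a time, there were 22 and 16.

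The insulin difference of the upper ZmAffx members had a median of 0.55, with 125 of 127 above 0, and that of the Zm members a median of -0.05, with 28 of 72 above 0. Over all probe sets the median was -0.01, and over the whole upper ZmAffx family it was 0.34, with 207 of 235 above 0. With values below background raised to it, the median of the upper ZmAffx members was 0.36. All 3 samples with insulin were above all 3 without for 25 members, 22 of them in the upper ZmAffx family, and the background was 1.52%. The reverse held for 1 member, with a background of 2.46%. For 92 of the 214 members the 95% interval of the insulin difference stayed inside 1 unit up or down, and for the others it reached a 2-fold change. Over all probe sets it stayed inside for 93.6%, so the members were measured less precisely than most of the array.

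Polysomal RNA with insulin was then compared with total RNA with insulin, which has 1 sample and adds nothing to the estimate of spread. Again 0 members and 0 of all probe sets (0%) were called at an adjusted p under 0.05 in limma. With an unadjusted p under 0.05, 54 members were higher on polysomes, where the whole array gave 5.42%, and 8 were lower, where it gave 7.74%. Members of the upper ZmAffx and Zm families differed in the sign of their median difference. Upper ZmAffx members had a median of 0.64, with 119 above 0 and 8 below. Zm members had a median of -0.31, with 18 above 0 and 54 below. The median over all probe sets was -0.07. In the whole upper ZmAffx family the median was 0.30, with 156 of 235 probe sets above 0 and 79 below. Whether the families differ was not tested, since members of a family are not replicates.

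All 3 insulin-treated polysomal samples were above the total RNA sample for 118 of the 214 members, with a background of 24.6%, and 102 of these were upper ZmAffx members. They were all below it for 23 members, with a background of 37.5%, and 21 of these were of the Zm family. The insulin-treated polysomal mean was at least 1 unit higher than total RNA for 50 upper ZmAffx members, 7 with lower numbers and 3 Zm members, where the array gave 1.54%. It was at least 1 unit lower for 13 members, all of the Zm family, where the array gave 2.26%. In the whole upper ZmAffx family it was at least 1 unit lower for 26 of 235 probe sets, all of them non-members. For 88 of the 127 upper ZmAffx members the total RNA value was itself below background. With such values raised to background the median of this family was 0.35, and over the 39 measured in total RNA it was 0.55, with 32 above 0.

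**Figure D5:**
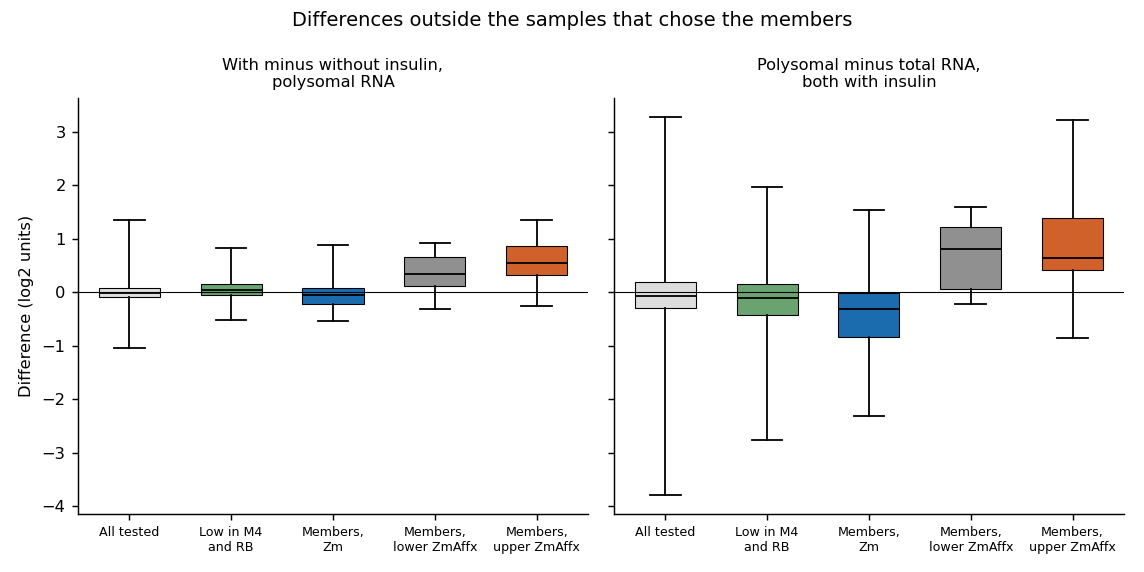
Differences (log2 units) between polysomal RNA with and without insulin (left) and between polysomal and total RNA with insulin (right), for all 17555 probe sets, the 126 low in M4 and RB, and the members by identifier family. Boxes are quartiles, bars medians and whiskers the lowest and highest probe set. The upper ZmAffx members have medians of 0.55 and 0.64, the Zm members of -0.05 and -0.31.

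Polysomal samples without insulin, set against the same total RNA sample, gave a smaller number. Their mean was at least 1 unit higher for 16 members, 13 of them in the upper ZmAffx family, with a background of 1.57%. Both polysomal groups were compared with 1 shared total RNA sample, so these counts are not independent.

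The comparison set of 126 stored probe sets, low in both M4 and RB, was made up differently. It held 104 Zm probe sets, 12 with lower and 10 with upper ZmAffx numbers. In RB the median share of the fall left was 13.3%, a value the rule bounds from above. On the insulin contrast 3 of the 126 had an unadjusted p under 0.05, with a median of 0.04, and against total RNA 14 did, with a median of -0.11. Its 104 Zm probe sets had a median of -0.18 against total RNA, of the same sign as the -0.31 of the Zm members. The 10 with upper ZmAffx numbers had medians of 0.34 for insulin and 0.41 against total RNA, with the same signs as the members of that family. Against total RNA the whole family also had a median above 0, at 0.30, but the sign was shared less widely than among its members. There 156 of its 235 probe sets were above 0 and 79 below, while among its members 119 were above and 8 below.

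Within families the size of the RB difference went only loosely with the polysomal difference. Across the 127 upper ZmAffx members, RB minus M4 correlated with insulin-treated polysomal minus total RNA at a Pearson r of 0.23 and a Spearman rho of 0.24. Across the 72 Zm members these were -0.12 and -0.11. The 2 differences share no array, but members are not independent replicates, and many values lie near background.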

How the data were processed

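The authors deposited 1 table of 17734 probe sets on 14 arrays. Its deposited values, 2.60 to 14.38, were read as log2 intensities from that range alone; how background was corrected, arrays normalized and probes summarised is not given in the labels or headers read here, and limma is the only tool in the submitters' processing notes. A total of 179 control probe sets were set aside, leaving 17555. Technical arrays were averaged first. The members and the lists were chosen with earlier results of these data known. Contrasts used limma 3.58.1 (R 4.3.3) on 7 biological samples (polysomal RNA without and with insulin, total RNA with insulin; 4 residual and 2.95 prior degrees of freedom), with Benjamini-Hochberg adjustment over 17555. M4 and RB stayed out of that fit, since the rule fixes their difference. The fit was tested on simulated data with known changes. Changes of 2-fold were not recovered for polysomal against total RNA, and only partly for insulin. The absence of calls in these tests therefore does not show that such changes are absent. Samples are called biological replicates without a stated source, so p-values reflect the spread among these samples alone, which may be technical, and the number of arrays limits the precision.

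Gene names came from the platform's annotation (1452 probe sets with 1 gene, 1 with several, 16102 with none), of which 1377 were updated by gene ID through RefSeq names of Zm-B73-REFERENCE-NAM-5.0. The text names every member with 1 gene, the genes of the lists by quiescent level, and of unnamed members the 2 with the largest RB minus M4 and the 2 with the largest polysomal residue; other genes were singled out after their values were seen. Alternatives were another scaling, other uses of arrays and samples, other thresholds, a filter on dim probe sets, other fits and the replicate number as a block. Figures used matplotlib 3.10.9.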

Additional observations from a re-analysis of the deposited data

Results flagged for a closer look

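Poly-A spike-in controls, which belong to no comparison, had a median above every negative control probe set in 11 of 11 biological samples. Their median ranged from 7.17 in total RNA with insulin to 10.8 in polysomal sample 1 without insulin.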

How the results depend on the processing

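The persisting set numbered 326 with a fall of at least 2, 120 with a fall of at least 4, and 90 with RB at least 2 above M4, against 214 as reported. Under the other alternatives it stayed within 1.5 times that count, and without quiescent sample 1 or 2 it numbered 215 and 212. The median residue on polysomes moved by less than the spread between polysomal samples under all 11 alternatives, from -0.10 to 0.01 in the Zm family and from 0.13, over members above background in M4, to 0.47 in the upper ZmAffx family. The median share of the fall left with insulin on polysomes was 9.69% and dropped to 1.72% over members above background in M4, which leaves out most of the upper ZmAffx family. No member was called in either test under any alternative, the replicate block included (0 in both). Counts at an unadjusted p under 0.05 were 2 for insulin and 22 for polysomal against total RNA with all 5 groups in the fit, a fit in which the M4 to RB difference enters the spread. They were 39 for polysomal against total RNA with both polysomal groups averaged, and 49 and 66 with the replicate block. Of the same-numbered polysomal samples, only those numbered 3 deviated together (r = -0.63, -0.45 and 0.60 for numbers 1 to 3), so the numbers were not taken as pairs. Sample 1 without insulin correlated best with sample 2 with insulin (r = 0.77), and sample 2 without with sample 1 with insulin (r = 0.70). No label supports this hint from the data. The replicate block joined samples of equal number, so it did not account for this likeness and cannot show how another pairing would change the counts. Leaving out 1 polysomal sample at a time gave 13 to 93 for insulin and 39 to 79 against total RNA. Insulin differences of single genes reversed when 1 sample was left out. They ranged from -0.75 to 0.39 for per1, from -0.83 to 0.50 for mtl2, from -0.11 to 0.23 for tip3a and from -0.045 to 0.23 for c1. The polysomal against total difference of c1, below background throughout, was -0.13 with first arrays only and ranged from -0.0020 to 0.19 with samples left out. The cause was not tested.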

Other observations

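Some heat shock protein genes went in the other direction, lower in RB than in M4, and the list gave no member. Of 12 probe sets, 6 were at least 1 unit lower in RB than in M4, where the whole array gave 1079 of 17555. The chaperone gene hsp101, whose protein takes apart protein aggregates, was at 10.50 and 10.79 in quiescent axes, 11.62 in M4, 8.38 in RB and 11.67 in total RNA with insulin. On polysomes hsp101 was 11.94, 12.66 and 10.62 without insulin and 11.03, 12.01 and 9.89 with insulin. Sample 3 was the lowest of each group, so lower levels were not limited to RB. The small heat shock protein genes hsp22 and hsp18c were 2.33 and 2.91 lower in RB than in M4 by their probe sets with a high level. The 3 probe sets of hsp70-5 and the 1 of hsp70-4 had RB minus M4 between -0.18 and 0.12. Each is a difference between single samples, with no test.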
